A study of Mus musculus with 13 samples.

Results

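STAT3 binding after IL-21 was compared between IgM+ and IgG1+ wild-type mouse B cells, using the 4 peak lists of these cells out of the 12 lists and 13 samples of the series. The assay was CUT&RUN: an antibody to STAT3 brings a nuclease to bound chromatin inside permeabilised cells, and the DNA cut free there is sequenced. Splenic B cells were first kept for 96 h in culture with IL-4 (12.5 ng/mL) and an antibody to CD40 (1 µg/mL), and then sorted by the isotype on their surface. For each library, 400000 sorted cells received IL-21 (10 ng/mL) and anti-CD40 for 1 h, an arm for which the labels record no IL-4. Both groups therefore shared the wild-type genotype, the culture and the cytokine, and differed in the sorted isotype (IgM or IgG1), with 2 libraries each. STAT3 knockout (KO) cells, with 1 library per condition, and wild-type cells given IL-4 in place of IL-21 served only as further readouts. The sources used here do not give the mouse strain, the age, the means of deleting Stat3 or whether replicates came from separate animals. Any p-value therefore measures the spread among these libraries alone, and that spread may be technical.

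IL-21 is a cytokine of follicular helper T cells that acts on B cells through a receptor containing the common gamma chain. Its receptor engages JAK1 and JAK3, which phosphorylate STAT3. Activated STAT3 dimers enter the nucleus and bind palindromic sites of the form TTC, a short spacer and GAA, and SOCS proteins encoded by their target genes feed back on the kinases. An activated B cell first carries IgM and may switch to IgG1, a change that IL-4 and CD40 signals favour in mice. Cells of both isotypes in these cultures had thus received the same switching signals.

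The comparison was made on regions. Overlapping peaks (1 bp or more) on chromosomes 1 to 19, X and Y were joined over the 4 lists, and a list held a region if it had 1 or more peaks there. The 5555 peaks gave 4306 regions, against 11227 for all 12 lists. A region was called shared when all 4 lists held it, IgM-restricted when both IgM lists and neither IgG1 list did, and IgG1-restricted in the reverse case. There were 167 shared regions (3.88% of 4306), 93 IgM-restricted regions (2.16%) and 14 IgG1-restricted regions (0.325%). Regions carry the name of the nearest protein-coding gene within 50000 bp, which does not show that the gene is controlled from there. The lists carry no read depth, and the absence of a peak is not the absence of binding.

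Promoter stretches with a STAT-type motif are shown for regions of 3 kinds, to let the sites held by both isotypes be set beside those of 1 isotype. They come from RefSeq (assembly GRCm38.p6, of which mm10 is UCSC's name for the base release), and run 5′ to 3′ on the strand of the gene. All but that of Cish end at or before the transcription start. The Cish stretch ends with its motif (107296659 to 107296667), which begins at the annotated gene start (107296659). Capitals mark the motif TTCNNNGAA, which reads the same on both strands. The first 4 lie in shared regions: chr11:45955190-45955270 (minus strand) at Thg1l, a tRNA-modifying enzyme, chr12:11265808-11265857 (minus) at Gen1, a Holliday junction resolvase, chr14:55721924-55722003 (minus) at Rabggta, which encodes part of the enzyme that attaches lipids to Rab proteins, and chr16:23988926-23989006 (minus) at Bcl6, the repressor that governs the germinal centre programme.
Thg1l: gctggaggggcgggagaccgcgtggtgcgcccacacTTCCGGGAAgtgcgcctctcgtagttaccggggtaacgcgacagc
Gen1: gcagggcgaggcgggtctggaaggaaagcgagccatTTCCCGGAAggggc
Rabggta: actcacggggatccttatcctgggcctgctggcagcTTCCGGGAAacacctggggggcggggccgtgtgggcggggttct
Bcl6: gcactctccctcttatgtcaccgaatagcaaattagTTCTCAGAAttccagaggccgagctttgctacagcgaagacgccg
The next pair, chr11:117969476-117969556 (minus) and chr9:107296623-107296667 (plus), belong to feedback inhibitors of JAK-STAT signalling. Their regions were held by both IgM lists and by IgG1 replicate 2, but not by IgG1 replicate 1.
Socs3: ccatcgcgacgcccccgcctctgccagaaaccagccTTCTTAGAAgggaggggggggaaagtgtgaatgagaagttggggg
Cish: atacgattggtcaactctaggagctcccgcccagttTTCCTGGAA
The last 3 with a motif lie in IgM-restricted regions. They are chr7:15945843-15945903 (plus) at the RNA gene Gm24576, which lies in the region named Nop53, chr7:29768489-29768551 (plus) at the zinc finger gene Zfp84, and chr9:98563676-98563730 (plus) at Copb2, a coat protein of the Golgi.
Gm24576: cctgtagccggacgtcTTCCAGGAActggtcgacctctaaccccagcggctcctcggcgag
Zfp84: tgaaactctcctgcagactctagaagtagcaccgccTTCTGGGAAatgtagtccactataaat
Copb2: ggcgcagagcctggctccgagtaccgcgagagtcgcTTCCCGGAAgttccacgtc
The promoter of Id3, an inhibitor of E-protein transcription factors, lies in an IgG1-restricted region (chr4:136143572-136143821, plus strand) and is given for contrast, since it holds neither TTCNNNGAA nor the same pair of triplets with 4 bases between them.
Id3: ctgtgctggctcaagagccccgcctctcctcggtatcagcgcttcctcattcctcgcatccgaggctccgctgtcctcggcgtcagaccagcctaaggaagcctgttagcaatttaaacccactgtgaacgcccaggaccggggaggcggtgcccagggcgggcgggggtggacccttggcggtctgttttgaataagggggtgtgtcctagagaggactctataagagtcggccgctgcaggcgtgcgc
The distance from motif to peak summit varied between the printed promoters. At Bcl6, the largest of the shared examples, it was 254 bp in IgM replicate 1, 211 bp in IgM replicate 2, 175 bp in IgG1 replicate 1 and 257 bp in IgG1 replicate 2. At Thg1l it was 138, 139, 98 and 95 bp in the same order. At Cish it was 66, 28 and 14 bp in the 3 lists with a peak (IgM replicates 1 and 2 and IgG1 replicate 2). The Cish promoter held 2 matches in the region, with 3 or 4 bases between TTC and GAA. Its distances are to the printed match. At Copb2 the distance was 2 and 20 bp in the 2 IgM lists.

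The strongest sites were held in common, and weaker ones by some lists and not by others. The IgM lists held 2034 and 1171 peaks and the IgG1 lists 865 and 1485, so the isotypes overlapped in list length (mean difference 427.5 peaks, exact permutation p = 0.667, two-sided). With 2 lists against 2 the smallest p such a test can give is 0.333, so no measure of a list can pass. Peaks with a fold enrichment of at least 10 (the authors' ratio of signal to local background) numbered 175, 61, 28 and 77 in the same order. Of all regions, 3612 were held by 1 list, 224 by 1 list of each isotype and 196 by 3 lists. Of the 196 regions held by 3 lists, 135 lacked only IgG1 replicate 1, 48 only IgM replicate 2, 10 only IgG1 replicate 2 and 3 only IgM replicate 1. IgM replicate 1 and IgG1 replicate 2 alone made up 159 of the 224 regions held by 1 list of each isotype. The libraries with the longest list of each isotype thus had more regions in common with each other than the IgG1 libraries had between them.

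**Figure D1:**
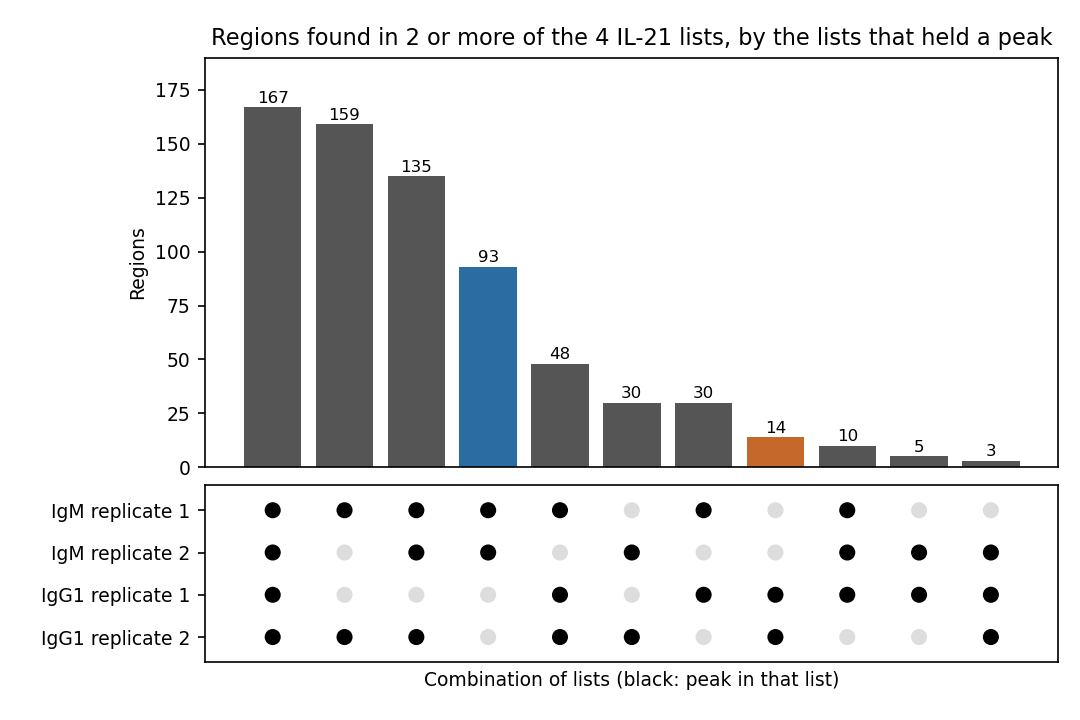
Number of regions (y axis) for each combination of 2 or more IL-21 lists (x axis, black dots mark the lists with a peak). Blue marks the 93 IgM-restricted and orange the 14 IgG1-restricted regions, and grey marks all other combinations, of which the 167 regions of all 4 lists are the largest.

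The largest overlap of any pair of lists joined different isotypes. The 2 IgM lists had 405 regions in common, 19.9% of IgM replicate 1 and 34.9% of IgM replicate 2. IgM replicate 1 and IgG1 replicate 2 had 509 in common, 25.0% of the first and 34.4% of the other. The 2 IgG1 lists had 232 in common, 27.1% of replicate 1 and 15.7% of replicate 2. With the 865 strongest peaks of every list, by −log10 p, the IgM pair had 334 regions in common (38.6% and 39.1% of the 2 lists) and the IgG1 pair 215 (25.1% and 25.0%). Across the isotypes the equal lists had 181 to 379 regions in common, the highest again for IgM replicate 1 with IgG1 replicate 2 (43.8% and 44.0%). The IgM pair ranked below that pair and above the other 3 cross-isotype pairs, and the IgG1 pair ranked below 3 of the 4 cross-isotype pairs. These overlaps were not tested.

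How often the other isotype also had a peak fell with rank. The 405 regions held by both IgM lists were put in 4 equal groups by their mean rank in those lists. Regions with KO peaks were kept in, including 22 shared regions with a peak in all 4 KO lists. The shares without them were not computed. Of the 102 strongest, 89 (87.3%) were also in both IgG1 lists, 11 in 1 of them and 2 (1.96%) in neither. Of the 101 weakest, 12 (11.9%) were in both IgG1 lists and 50 (49.5%) in neither. The 232 regions of both IgG1 lists showed the same order: all 58 of the strongest group were in both IgM lists, and of the 58 weakest 24 (41.4%) were in both and 8 (13.8%) in neither. Among the regions of both IgM lists, IgG1 replicate 1 held 177 (43.7%) and IgG1 replicate 2 held 302 (74.6%). Among those of both IgG1 lists, IgM replicate 1 held 215 (92.7%) and IgM replicate 2 held 170 (73.3%).

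**Figure D2:**
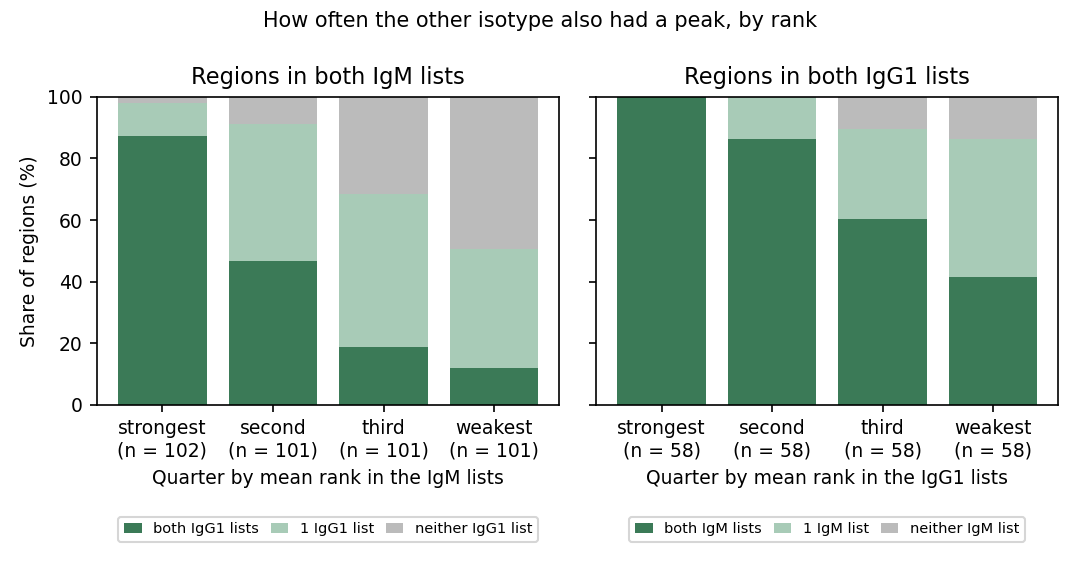
Share of regions (y axis, percent) found in both, 1 or neither list of the other isotype, for regions held by both IgM lists (left, n = 405) and both IgG1 lists (right, n = 232), in 4 equal groups from strongest to weakest mean rank (x axis). The share found in both lists of the other isotype goes from 87.3% to 11.9% on the left and from 100% to 41.4% on the right. Regions with a KO peak are included.

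Shared regions included the sites with the highest fold enrichment in every list. Thg1l (chromosome 11, 45954952 to 45955902, within the gene and 135 bp from its start) had folds of 117 and 62.4 in the IgM lists and 60.1 and 63.3 in the IgG1 lists. Lsm4, which encodes a subunit of the spliceosome's U6 snRNP (chromosome 8, 70673105 to 70674353, within the gene), had folds of 103, 66.7, 59.6 and 56.7. Ranked among the 167 shared regions, Thg1l stood at 6, 7, 7 and 7 and Lsm4 at 5, 5, 6 and 6 in the same order of lists. Slc39a1, a zinc transporter (chromosome 3, 90247713 to 90248977), had folds of 95.4, 40.5, 48.6 and 47.1 and ranks of 8, 10, 8 and 9. Folds are relative to each library and were not compared between lists. None of the 3 had a peak in a KO list. The other 7 of the 10 best-ranked shared regions, on chromosomes 2, 9 and 14, had folds of 1.37 to 2.12 in spite of their rank. They lay over 50000 bp from any protein-coding gene and had peaks in all 4 KO and all 4 wild-type IL-4 lists. Over all 167 shared regions 42 (25.1%, exact binomial 95% interval 18.8% to 32.4%) had a peak in at least 1 KO list and 22 in all 4. That share was 4.32% among the 3612 regions of 1 list. The summits of a shared region lay within a median span of 127 bp over the 4 lists.

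JAK-STAT and feedback genes were covered in both isotypes. Of 29 genes on that list 18 had a region, 4 a shared region (Jak3, Ptpn1, Socs3 and Stat3), 5 a region of 3 lists, 1 an IgM-restricted and 0 an IgG1-restricted region. Over all 21883 protein-coding genes the same counts were 2954 with a region, 134 shared, 168 with 3 lists, 82 IgM-restricted and 13 IgG1-restricted. At Jak3, which encodes the kinase bound to the common gamma chain (chromosome 8, 71676008 to 71676730, 14 bp outside the gene), the folds were 29.1 and 19.5 in IgM and 9.78 and 17.5 in IgG1 cells. At Stat3 itself (chromosome 11, 100939445 to 100940152, 79 bp outside the gene) they were 23.5 and 11.4 in IgM and 8.55 and 12.6 in IgG1 cells. Among the shared regions Jak3 was ranked 20 and 16 in IgM and 37 and 26 in IgG1 cells, without overlap, and Stat3 25 and 45 against 46 and 37, with overlap.

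Socs3, the feedback inhibitor of STAT3 signalling, had 7 regions, of which 1 was held by IgM replicate 1 alone. The other 6 were held by both IgM lists and by IgG1 replicate 2, and IgG1 replicate 1 held 3 of those. The strongest (chromosome 11, 117951914 to 117953025, 13532 bp outside the gene) had folds of 25.0 and 16.6 in IgM and 9.92 and 21.0 in IgG1 cells. The promoter region printed above (117968748 to 117969687) had folds of 13.8 and 8.95 in IgM cells and 7.74 in IgG1 replicate 2. Cish had a promoter region (chromosome 9, 107295764 to 107297023) with folds of 15.5, 8.32 and 7.43 in the same 3 lists and another region 10444 bp outside the gene with 13.1, 7.27 and 9.09. Another Cish region was held by IgM replicate 1 alone. Neither inhibitor was therefore a gene of 1 isotype in these lists, and in the regions of 3 lists at both the missing peak was that of IgG1 replicate 1. The IgM-restricted JAK-STAT region lay 26848 bp outside Jak1 (chromosome 4, 101292044 to 101292381). Its folds were 5.41 and 2.54, with a rank of 1156 of 1171 peaks in IgM replicate 2, and IgG1 replicate 2 had a peak 532 bp away.

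IgM-restricted regions were of middling strength. Their folds ran from 3.01 to 12.6 in IgM replicate 1 (median 6.36) and from 2.54 to 11.9 in IgM replicate 2 (median 4.98). The medians of the shared regions in the same lists were 12.7 and 7.16. As a share of the list's length, the median rank of the IgM-restricted regions was 30.0% and 40.8%, against 4.33% and 9.14% for the shared. Their median width was 442 bp and that of the shared regions 783 bp. Of 92 regions outside chromosome 18, for which no start sites were used, 29 (31.5%, exact binomial 95% interval 22.2% to 42.0%) had a summit within 1000 bp of a transcription start. The share was 42.3% for shared regions (34.6% to 50.3%) and 21.5% for regions of 1 list. These intervals cover counting error over regions and not the spread between libraries.

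The 15 best-ranked IgM-restricted regions lay at genes of varied function, with 1 over 50000 bp from any gene. Mdm2, the ubiquitin ligase that restrains p53 (chromosome 10, 117715145 to 117715613, 4726 bp outside the gene), had folds of 11.7 and 11.9, with ranks of 168 of 2034 and 66 of 1171 peaks. Rnf44, which encodes a RING finger protein (chromosome 13, 54687860 to 54688157, within the gene), had folds of 11.6 and 8.25. Pou2af1, the B-cell coactivator of octamer-binding factors (chromosome 9, 51213213 to 51213663, 289 bp outside the gene), had folds of 12.6 and 6.07. The nearest IgG1 peak was 764524 bp from the Mdm2 region, 101019 bp from the Rnf44 region and 12158 bp from the Pou2af1 region. That last peak belonged to another Pou2af1 region, held by IgM replicate 1 and IgG1 replicate 2. Mcl1, which encodes an anti-apoptotic protein, had an IgM-restricted region 5827 bp outside the gene (folds 9.10 and 5.09). It also had a region within the gene (chromosome 3, 95658267 to 95659027) that both IgM lists and IgG1 replicate 2 held. Serpinb1c, Tnrc6b, Tspan13, Nop53, Tpd52, Ece1, Nfya, Lrp8, Tmem252 and a gene-free region of chromosome 10 (96374177 to 96374800) completed the 15 together with Csf3r. At Tpd52 an IgG1 peak lay 49 bp from the IgM region without overlapping it.

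Csf3r encodes the receptor of granulocyte colony-stimulating factor and is a marker of myeloid cells. Its region (chromosome 4, 126003998 to 126004424) lay 19183 bp outside the gene and had folds of 10.1 and 8.66. It was the only gene with a region among 6 myeloid markers, and of 7 T and NK cell markers, 6 of them in the gene table, none had one. Of 7 B cell markers 2 had a region, each in 1 list, and of 5 plasma cell markers 1. Over all 21883 protein-coding genes, 2954 had a region. A peak list measures no expression, so these counts do not test the purity of the sorted cells.

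Of 25 survival and proliferation genes, 4 had an IgM-restricted region (Bcl2l1, Mcl1, Mdm2 and Pmaip1) and 0 an IgG1-restricted one, while 2 had a shared region (Klf10 and Mnt) and 3 a region of 3 lists. Over all 21883 genes, 82 had an IgM-restricted and 13 an IgG1-restricted region. A region of any kind was present at 12 of the 25 and at 2954 of all genes. The list was chosen with earlier results known, and whether it differs from all genes was not tested. The anti-apoptotic gene Bcl2l1 (chromosome 2, 152810042 to 152810277, within the gene) had folds of 9.18 and 5.29, and the nearest IgG1 peak was 482145 bp away. Pmaip1, which encodes a pro-apoptotic protein, had a region 5147 bp outside the gene with folds of 8.69 and 4.05. Genes with opposite roles in apoptosis thus appeared in the same class. Of 30 BCR and CD40 signalling genes, 2 had an IgM-restricted region, 3 a region of 3 lists (Plcg2, Rela and Syk), 1 a shared region (Bcl3) and 0 an IgG1-restricted region. The 2 were Birc3, an inhibitor of apoptosis induced by NF-kB (21 bp outside the gene, folds 7.41 and 2.74), and Blnk, the adaptor of the B cell receptor (1416 bp outside the gene, folds 9.97 and 5.26). An IgG1 peak lay 350 bp from the Blnk region.

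B cell and plasma cell fate genes appeared in every class. Of 32, 5 had a shared region, 6 a region of 3 lists, 3 an IgM-restricted region (Ccr7, Pou2af1 and Pou2f2) and 2 an IgG1-restricted region (Id3 and Jund). The shared regions were at Batf, Bcl6, Ccr7, Il10 and Jund. At Bcl6 (chromosome 16, 23988392 to 23989110, within the gene) the folds were 29.7 and 11.6 in IgM and 6.67 and 14.9 in IgG1 cells. At Il10, an immunoregulatory cytokine (chromosome 1, 131022698 to 131023418, within the gene), they were 20.5 and 9.68 in IgM and 11.8 and 13.9 in IgG1 cells. The ranks among shared regions overlapped between the isotypes at Bcl6, at 26 and 65.5 in IgM and 100 and 49 in IgG1 cells. At Il10 they did not overlap, at 62 and 82 in IgM and a stronger 39.5 and 60 in IgG1 cells (limma adjusted p = 0.662). Ccr7, a chemokine receptor of the T cell zone, had a shared region with folds of 18.4, 7.47, 8.90 and 12.6. Its IgM-restricted region (within the gene, chromosome 11, 99150660 to 99150971, folds 5.15 and 5.26) overlapped a peak of the KO list for IgM cells with IL-21. The same KO library had a peak in the region of Pou2f2, an octamer-binding factor (within the gene, folds 8.83 and 4.98). Of 15 class switching and isotype genes, 10 were in the gene table and 2 had a region, each in 1 list.

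All 14 IgG1-restricted regions had folds below 10. The values ran from 3.47 to 7.31 in IgG1 replicate 1 (median 4.97) and from 3.20 to 6.89 in IgG1 replicate 2 (median 5.02), and the median ranks were 37.3% and 39.5% of the list. Rab20, a small GTPase of membrane traffic (chromosome 8, 11463738 to 11464098, within the gene), had folds of 7.31 and 5.32. Rbm3, a cold-inducible RNA-binding protein (chromosome X, 8145906 to 8146186, 86 bp outside the gene), had folds of 5.17 and 6.89. Neither had a peak in the 4 wild-type IL-4 and 4 KO lists. The Id3 region (chromosome 4, 136143337 to 136143832, 26 bp outside the gene) had folds of 5.14 and 5.93, and peaks in 2 wild-type IL-4 lists and 1 KO list. All of these further lists were of IgM cells: both wild-type IgM lists with IL-4 and the KO list for IgM cells with IL-4. Jund, an AP-1 subunit, had an IgG1-restricted region within the gene (folds 4.53 and 3.20) that lay 211 bp from an IgM peak, beside a shared region with folds of 8.83, 5.15, 7.17 and 5.52. The region at Prdx3, a mitochondrial peroxiredoxin (folds 3.47 and 4.11), had a peak in all 4 KO lists. Others lay at Cib1, Ell, Ube2j1, Ly6e, Nop2 and Rabggta (another region of that gene) and in a gene-free stretch of chromosome 12 (97061510 to 97061783). That stretch had peaks in both wild-type IgG1 lists with IL-4 and in neither wild-type IgM list with IL-4. It also had a peak in the KO list for IgM cells with IL-4. A summit lay within 1000 bp of a transcription start in 8 of the 14 (57.1%, exact binomial 95% interval 28.9% to 82.3%).

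**Figure D3:**
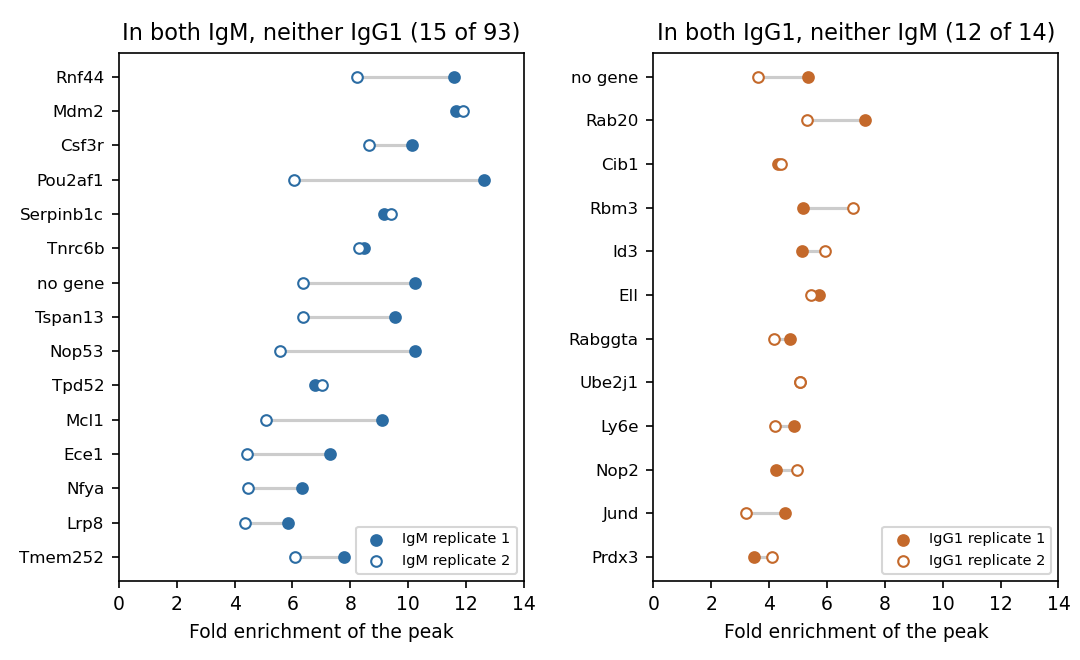
Fold enrichment (x axis, the authors' ratio for each peak) of the 15 best-ranked IgM-restricted regions (left, blue) and of 12 of the 14 IgG1-restricted regions (right, orange), named by gene, with filled points for replicate 1 and open points for replicate 2. The IgM points lie between 4.38 and 12.6 and the IgG1 points between 3.20 and 7.31, and each fold is set against its own library's background.

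The counts of restricted regions depended on the length of the lists. With the 865 strongest peaks of each list there were 2435 regions, of which 68 (2.79%) were IgM-restricted, 19 (0.78%) IgG1-restricted and 156 (6.41%) shared. Of the 68, 15 had a weaker peak in a full IgG1 list and 53 had none. Of the 19, 8 had a weaker peak in a full IgM list and 11 had none. With the 400 strongest peaks there were 940 regions, with 43 (4.57%), 17 (1.81%) and 121 (12.9%) in the 3 classes. A weaker peak of the other isotype was then found at 28 of the 43 and at 13 of the 17. The number of IgM-restricted for each IgG1-restricted region thus narrowed as the lists were made equal and short. Ankhd1, an IgM-restricted region of the equal lists, stood at rank 186 and 156 in the IgM lists (folds 8.91 and 6.08) and had a peak at rank 1038 of IgG1 replicate 2. Ino80d, a subunit of a chromatin remodeller, was IgG1-restricted there at ranks 205 and 284 (folds 5.72 and 6.89), with a peak at rank 1221 of IgM replicate 1. Leaving out 1 library makes the rule easier to meet. Without IgM replicate 1, IgM replicate 2, IgG1 replicate 1 and IgG1 replicate 2, in this order, the IgM-restricted count was 816, 1489, 103 and 228, the IgG1-restricted count 62, 17, 938 and 595, and the shared count 168, 215, 302 and 176.

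The 8 lists that had not defined the classes gave further readouts of them. Of the 93 IgM-restricted regions 5 (5.38%, exact binomial 95% interval 1.77% to 12.1%) had a peak in a wild-type IL-4 list, and of the 14 IgG1-restricted regions 7 (50%, 23.0% to 77.0%). For the shared regions the share was 41.3% (33.8% to 49.2%), and over all 4306 regions, of which 3612 were held by 1 list, it was 6.04%. It was 15.3% for regions of 3 lists, 17.0% for regions of 1 list of each isotype and 3.07% for regions of 1 list. The IL-4 peaks were also counted by list, and whether they follow the isotype was not tested. In IgM replicates 1 and 2 and IgG1 replicates 1 and 2 with IL-4, the IgM-restricted regions had 3, 0, 3 and 0. The IgG1-restricted regions had 5, 1, 1 and 2 in the same order, and all 4306 regions 173, 94, 78 and 48. A KO peak was present in 14 of the 93 (15.1%, 8.48% to 24.0%) and in 4 of the 14 (28.6%, 8.39% to 58.1%). Over all 4306 regions the share with a KO peak was 6.50%. It was 25.1% for shared regions, 16.8% for regions of 3 lists, 13.8% for regions of 1 list of each isotype and 4.32% for regions of 1 list. By list, 9 of the 93 had a peak in KO IgM cells with IL-21, 1 in KO IgG1 cells with IL-21, 4 in KO IgM cells with IL-4 and 1 in KO IgG1 cells with IL-4, against 99, 65, 150 and 120 of all regions. For the 14 these counts were 1, 2, 3 and 1. Without all regions that had a KO peak, an alternative added after the data were seen, 79 IgM-restricted, 10 IgG1-restricted and 125 shared regions were left. Each KO condition has 1 library, so these numbers have no replicate check.

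Some genes with a restricted region also had a site in the lists of the other isotype. The IgM-restricted regions named 82 genes, of which 23 had another region in at least 1 IgG1 list and 3 had another in both (Ccr7, Gadd45g and Zfp36). The 13 genes of the IgG1-restricted regions included 3 with another region in an IgM list and 2 with one in both (Jund and Rabggta). The median distance from an IgM-restricted region to the nearest IgG1 peak was 102191 bp, with 4 of 93 within 1000 bp and 19 within 10000 bp. For IgG1-restricted regions the median distance to an IgM peak was 98787 bp, with 1 of 14 within 1000 bp and 2 within 10000 bp.

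Within the shared regions the order of strength was close in all 4 lists. Each list was ranked by −log10 p over the 167 regions, with 1 for the strongest. Spearman's rho across regions was 0.873 between the IgM lists and 0.735 between the IgG1 lists, and 0.709 to 0.871 across the isotypes. These are descriptions over regions, which are not independent, and every pair includes the same regions with KO peaks. Over the 125 shared regions with no KO peak rho was 0.836 within IgM, 0.635 within IgG1 and 0.628 to 0.842 across. The 3 pairs with IgG1 replicate 1 had the lowest values in both sets.

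No shared region had a rank that differed between the isotypes by limma on normal scores of the ranks. Of the 167, 0 (0%) passed a Benjamini-Hochberg adjusted p of 0.05, the smallest adjusted p was 0.353, and 8 had an unadjusted p below 0.05. Both IgM ranks were stronger than both IgG1 ranks at 31 regions (18.6%) and the reverse held at 29 (17.4%). Every list ranks the same regions, so a stronger rank at one is offset by a weaker rank at another and the similar counts are no finding. Leaving out 1 library, which makes non-overlap easier, raised the sum of 60 to 99 without IgM replicate 1, 112 without IgM replicate 2, 100 without IgG1 replicate 1 and 124 without IgG1 replicate 2. Mnt, which encodes a MAX partner that antagonises MYC, had the smallest p. At 1 of its shared regions within the gene (chromosome 11, 74831998 to 74832418) the ranks were 160 and 162 in IgM and 122 and 119 in IgG1 cells. The normal score differed by -1.19 (IgM minus IgG1, SE 0.122, limma adjusted p = 0.353). The region also had a peak in 1 KO list, and the groups did not overlap in rank. Another shared region within Mnt (74837774 to 74839138) did not show this order. As a share of the list's length, it ranked at 6.88% and 17.4% in IgM and 36.9% and 14.7% in IgG1 cells.

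Of the 8 largest differences towards IgM, 6 had their weakest rank in IgG1 replicate 1, and Dot1l and Sharpin had it in IgG1 replicate 2. Gtf2a2, a subunit of the general factor TFIIA (chromosome 9, 70012087 to 70012856, 110 bp outside the gene), was ranked 101 and 92 in IgM and 163 and 134 in IgG1 cells. A Socs3 region (117962928 to 117963930) was ranked 69 and 64 in IgM and 150 and 83 in IgG1 cells, and Lcmt2, within the gene, 39 and 48 against 120 and 64. Asap1, Adamtsl4 and Jarid2 were the others of the 8, and the Jarid2 region had a peak in all 4 KO lists. In the reverse direction Azin1, an inhibitor of antizyme in polyamine metabolism (chromosome 15, 38470213 to 38471296, 16618 bp outside the gene), was ranked 67 and 110 in IgM and 33 and 42 in IgG1 cells. Mex3c, Katnal1, Gdf9, Grk6 and 2 gene-free regions were the others beside Mnt. The gene-free region on chromosome 14 had the largest score difference in this direction. Both gene-free regions had a peak in all 4 KO lists, and the Mex3c region had a peak in 1. Apart from these regions, Jarid2 and Mnt, none of the 16 had a KO peak. The adjusted limma p was at least 0.353 at each of these 16 regions.

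**Figure D4:**
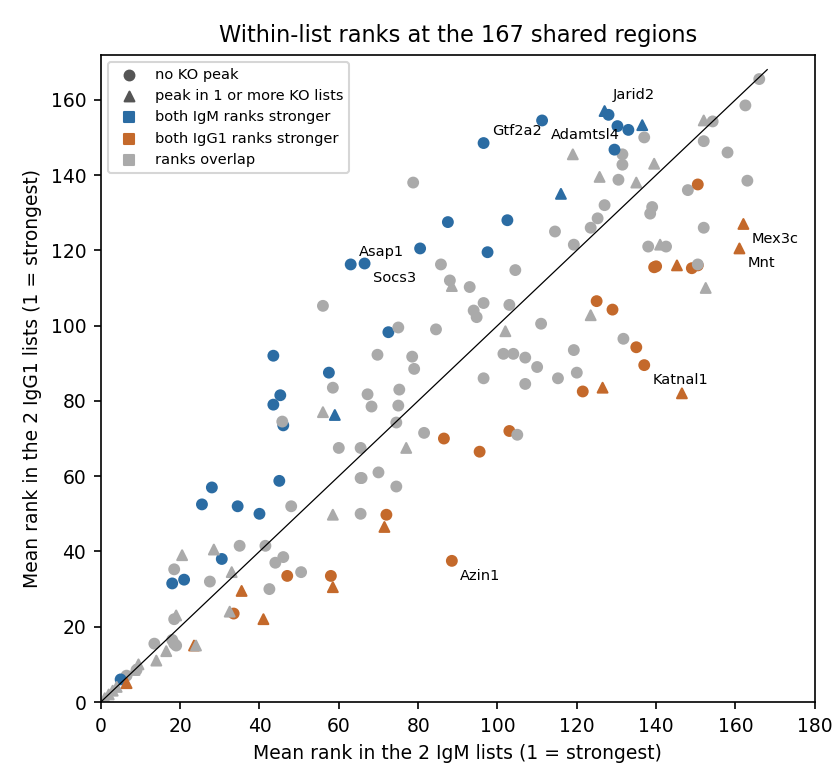
Mean rank of each of the 167 shared regions in the 2 IgM lists (x axis) and in the 2 IgG1 lists (y axis), with 1 for the strongest and a line of equal rank. Blue marks the 31 regions with both IgM ranks stronger, orange the 29 with both IgG1 ranks stronger and grey the rest, with triangles for regions with a KO peak. The strongest regions lie on the line and the spread grows towards weaker ranks.

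Among the classes searched, the STAT-type motif was most frequent in promoters of regions that all 4 lists held. The class of 224 regions held by 1 list of each isotype was not searched. TTCNNNGAA was present in 33 of 92 promoters that met a shared region (35.9%), in 19 of 101 that met a region of 3 lists (18.8%) and in 6 of 33 that met an IgM-restricted region (18.2%). It was found in 0 of 7 promoters of IgG1-restricted regions, in 46 of 690 promoters of regions of 1 list (6.67%) and in 8.29% of all 32817 promoters of the same 300-base length. TTC and GAA with a spacer of 4 bases, a motif that also reads the same on both strands, were present in 6.52%, 4.95%, 6.06%, 0% and 6.09% of the same classes, and in 6.94% of all promoters. The class order was thus seen for the spacer of 3 and not for that of 4. Some promoters in a class belong to 1 gene or overlap, and the 92 lay in 63 regions. In the 33 promoters of shared regions with a motif of either spacer inside the region, the median distance from motif to summit was 139, 163, 129 and 137 bp in IgM replicates 1 and 2 and IgG1 replicates 1 and 2. The distance was 100 bp or less at 10, 6, 8 and 10 of the 33. A match is a description of the letters, and no match in the 7 promoters says nothing of the factor.

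**Figure D5:**
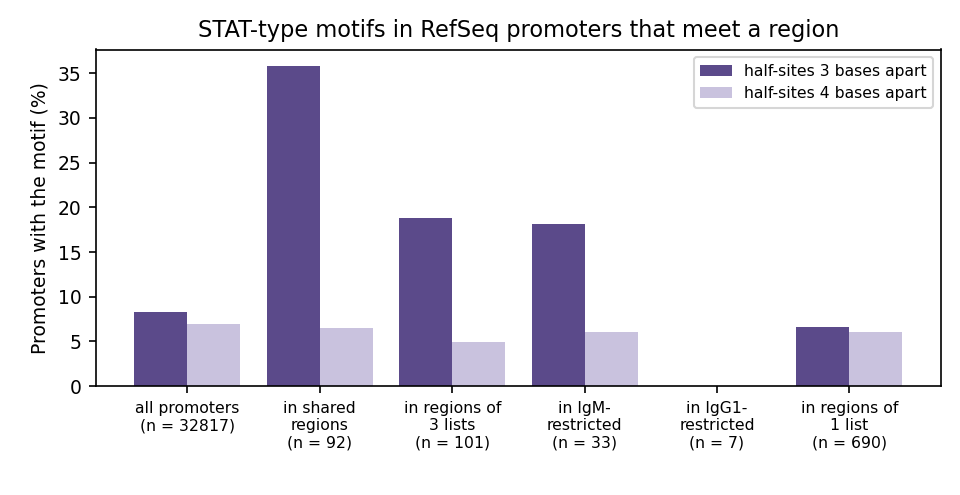
Share of RefSeq promoters (y axis, percent, 300 bases each) that hold the motif with a spacer of 3 bases (dark) or 4 bases (light), for all promoters and for those that meet a region of each class searched (x axis, n is the number of promoters). The dark bars are 35.9% for shared regions and 18.2% for IgM-restricted regions, against 8.29% for all promoters, and the light bars lie between 0% and 6.94%.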

How the data were processed

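Each library has its own peak list, as the authors deposited it. Per the labels and the file contents, a list gives each peak's position and summit, a score, a fold enrichment (a ratio), and −log10 values of p and q. The fold, the −log10 values and the score are the authors' deposited values. Folds were used to describe and filter peaks within a list, and ranks to compare lists. Build mm10 and the tools MACS2 2.2.7.1, Bowtie2 2.4.1, deepTools 3.5.1 and Trimmomatic 0.39 stand in the submitters' processing notes, without their roles. The sources used here do not give the control for peak calling, the use of the spike-in or the read depth. The input sample was not analysed here.

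Peaks off chromosomes 1 to 19, X and Y were left out, and the rest merged at 1 bp of overlap. A region took the best peak of each list, by −log10 p. Ranks at shared regions were converted to normal scores and fitted with limma 3.58.1 (R 4.3.3), with Benjamini-Hochberg adjustment over all 167 regions, after a test on simulated data. Counts of regions carry no test. Intervals are exact 95% Clopper-Pearson intervals. Nearest genes came from a RefSeq table of 21883 protein-coding genes and start sites from the RefSeq promoter table, which covers 17491 of them. A search of 300 bases around each summit needs the genome, so promoters were searched instead.

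Named regions were the 15 best-ranked IgM-restricted, the IgG1-restricted (2 of which are not reported here by name), the 10 best-ranked shared, the 8 largest rank differences in each direction, up to 30 at listed genes and up to 10 in each direction from equal lists. Positions are 1-based on mm10. The regions, gene lists and rules were chosen with earlier results of these data known. Alternatives were equal list lengths, a −log10 q of at least 5, other merging rules, ranks by fold, other scores, left-out libraries and KO-free regions.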

Additional observations from a re-analysis of the deposited data

How the results depend on the processing

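Ranks of same-numbered libraries did not pair: their deviations from the group means correlated at -0.127 over 167 regions. With the replicate block 0 regions passed in limma, and with the numbers crossed, an alternative added after the data were seen, 0 passed as well. Ranking by fold, log2 folds, KO-free regions and each left-out library also gave 0, as did the fit as reported.

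The top 400 peaks of each list lowered the IgM-restricted count from 93 to 43. Leaving out each library in turn gave 103 to 1489 IgM-restricted, 17 to 938 IgG1-restricted and 168 to 302 shared regions, and 99 to 124 regions with ranks that did not overlap, against 60 with all 4 lists. With fewer lists the rules are easier to meet, which by construction raises these counts. A −log10 q of at least 5, summits within 200 bp, merging up to 500 bp and KO-free regions kept the 3 region counts within 1.5 times (IgM-restricted 79 to 103, IgG1-restricted 10 to 17, shared 125 to 167). More IgM-restricted than IgG1-restricted regions were counted in every setting except without IgG1 replicate 1 (103 and 938) and without IgG1 replicate 2 (228 and 595). Depth per library is unknown, so no limit of detection can be given for a missing peak.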
